A study of Mus musculus with 24 samples.

Results

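The genes examined were 10 that carry Toll-like receptor (TLR) signals from the receptor's cytoplasmic domain to the kinases upstream of NF-κB and the interferon regulatory factors: the adaptors Myd88, Tirap, Ticam1 and Ticam2, the IRAK family Irak1, Irak2, Irak3 and Irak4, and the ubiquitin ligases Traf6 and Traf3. They were taken by symbol from the 55291 gene names counted in each of 24 mRNA-Seq libraries of mouse pulmonary fibroblasts, and all 10 were among the 16258 genes with enough reads to test. TLR4 signals through a pair of arms. At the plasma membrane, Tirap bridges the receptor to Myd88, which assembles IRAK4, IRAK2 and IRAK1 into a complex that engages TRAF6 and activates NF-κB and MAP kinases. From endosomes, Ticam2 (TRAM) links the receptor to Ticam1 (TRIF), which recruits TRAF3 and the kinases that phosphorylate IRF3, and IRAK3 (IRAK-M) restrains the MyD88 arm.

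Pulmonary fibroblasts came from the lungs of C57BL/6 wild type (WT) and TLR4-/- mice aged 4 to 8 weeks, each group from a pool of 3 to 4 lungs, and were used at passages 3 to 6. Cells of each genotype were kept overnight in reduced serum medium and then received PBS, 1 μg/ml recombinant mouse CIRP (rmCIRP, a damage-associated protein that binds TLR4), 2 ng/ml rmTGF-β1 or both for 24 h, with 3 libraries for each of the 8 conditions. Because lungs were pooled and nothing ties a library to its own animals, p-values measure only the spread between these libraries, which may be technical. The comparisons ask how the signal transducers responded to rmCIRP, with and without rmTGF-β1, and whether the response differed by genotype.

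Between 29853346 and 39664606 reads were counted on genes in each library. Tlr4 itself was not lower in the knockout: it had 759 ± 41.9 normalized counts (SD, n = 3) in WT and 903 ± 20.2 in TLR4-/- cells with PBS, so gene-level counts do not show the deletion and these libraries are called labelled TLR4-/-. Fibroblast markers were abundant in both genotypes, and all 15 macrophage markers were present as well. The summed normalized count of the macrophage markers with PBS was 96630.3 to 104992 in WT and 365073 to 417942 in the labelled TLR4-/- libraries, while that of 10 fibroblast markers was 588242 to 626027 and 562473 to 626788. Sums of 6 epithelial markers (70.8 to 115 in WT, 325 to 345 in labelled TLR4-/-) and 6 endothelial markers (683 to 965 and 715 to 797) were small. Similar sums hid differences of single markers. At the threshold given below, 2 of the 10 fibroblast markers were higher and 3 lower in labelled TLR4-/- libraries with PBS. Their log2 fold changes ran from -1.19 to 0.88. Of the 6 endothelial markers, 1 was higher and 4 were lower (from -1.81 to 2.13), when 47.1% of all genes differed. In such bulk samples, a change in the number of cells of a type and a change in RNA per cell cannot be told apart. Library 3 labelled TLR4-/- with both agents stood apart from its replicates, with a chi-square per degree of freedom of 50.6 against library 1 and 34.6 against library 2, and library 3 labelled TLR4-/- with rmTGF-β1 did so less, at 13.1 and 17.2. The remaining replicate pairs lay between 2.67 and 7.67.

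In unstimulated WT cells, the members differed widely in abundance per kb of exon. Irak1 was highest at 569.8 normalized counts per kb, followed by Myd88 at 414, Ticam1 at 299, Irak2 at 284 and Traf3 at 217. Irak3 stood at 177, Tirap at 164, Traf6 at 103 and Irak4 at 91.5 per kb. Ticam2 was the least abundant by far, at 5.12 per kb. Ticam2 shares exon sequence with Tmed7 on the same strand in GENCODE M21, so reads in the shared part could not be assigned to one of them and the level of Ticam2 is uncertain. Exons of Irak1 overlap Mir5132 and Mir718 on the same strand, so reads there could not be assigned to one gene either. Exons of Myd88, Tirap, Irak2, Irak3 and Irak4 overlap genes on the opposite strand. The strand setting of the counting was not given in the sources used here, so whether reads in these overlaps were counted is not known.

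Promoter sequence is shown for 4 members that differed in how they responded to rmCIRP (below): Myd88, Irak3 and Traf3, whose counts rose in WT cells, and Irak1, whose change did not pass the test. Each line gives the 120 bases before a transcription start (RefSeq, GRCm38.p6), read 5′ to 3′ on the gene's own strand, with matches to a searched motif in capitals.
Myd88 (chr9:119340019-119340138, minus strand): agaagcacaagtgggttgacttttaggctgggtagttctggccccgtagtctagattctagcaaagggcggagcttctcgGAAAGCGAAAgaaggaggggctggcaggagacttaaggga
Irak3 (chr10:120201598-120201717, minus strand): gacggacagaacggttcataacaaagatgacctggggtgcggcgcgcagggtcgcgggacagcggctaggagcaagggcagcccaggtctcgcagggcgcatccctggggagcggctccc
Traf3 (chr12:111166250-111166369, plus strand): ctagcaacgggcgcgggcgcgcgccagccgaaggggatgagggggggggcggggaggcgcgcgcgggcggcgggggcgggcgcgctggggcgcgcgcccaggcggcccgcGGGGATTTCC
Irak1 (chrX:74023919-74024038, minus strand): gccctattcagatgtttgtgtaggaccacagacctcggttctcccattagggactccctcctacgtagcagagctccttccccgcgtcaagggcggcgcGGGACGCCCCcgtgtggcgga
Of the 10 members, 9 were searched, over 250 bases before each of 12 starts and on both strands. Ticam2 was left out of the search. The motifs were the NF-kappaB motif, GAAANNGAAA (an interferon-response type element) and TGANTCA (an AP-1 type element). The Myd88 window held GAAANNGAAA at -40 to -31 from the start, a match found in 2.98% of 32851 promoter windows of the same length. The capitals in Traf3, at -10 to -1, and in Irak1, at -21 to -12 and matching on both strands, mark the NF-kappaB motif, which 7.25% of all windows held. TGANTCA, present in 6.75% of windows, was in none of the 12 windows searched. Neither window of Irak3 nor those of Tirap, Ticam1, Irak2, Irak4 and Traf6 matched any of the 3. A match describes letters and not binding.

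Stimulation of WT cells with rmCIRP raised the mRNA of both adaptor arms, of both TRAFs and of the inhibitory Irak3, while the changes of Irak1, Irak2 and Irak4 did not pass the test. The calls of the adaptors Tirap, Ticam1 and Ticam2 each depended on single libraries, as given below. By edgeR's quasi-likelihood test, with an adjusted p under 0.1 over all genes tested as the threshold, 7 of 10 members rose and none fell. Of all 16258 genes, 19.8% rose and 43.9% changed in either direction. The members were chosen with earlier results of these data known. The median log2 fold change was 0.18 over the members and -0.022 over all genes tested. Without regard to sign, the median size of change was 0.182 over the members and 0.179 over all genes. The libraries of the 2 conditions did not overlap for 7 of 10 members and for 50.8% of all genes. The sum of the macrophage markers was 83069 to 88177 with rmCIRP, below its level with PBS given above, and that of the fibroblast markers was 470382 to 508518, also below. Of the 15 macrophage markers 5 rose and 9 fell, of the 10 fibroblast markers 2 rose and 6 fell, and their part in the result was not tested.

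In the MyD88 arm, Myd88, the adaptor shared by nearly all TLRs and the IL-1 receptor family, had 1020.2, 1140.1 and 1039.8 normalized counts in the 3 WT libraries with PBS and 1523, 1416 and 1635 with rmCIRP. Every library with rmCIRP was above every library with PBS. The log2 fold change was 0.51 (SE 0.054, n = 3 per condition, edgeR adjusted p = 1.17e-07). Tirap, the sorting adaptor that brings Myd88 to the membrane, had 793, 847 and 786 normalized counts with PBS and 913, 849.8 and 897 with rmCIRP, a small rise with a log2 fold change of 0.13 (SE 0.052, edgeR adjusted p = 0.0609). The groups were separated by only a few counts, and the call for Tirap was lost without library 1 or 3 with PBS or library 1 or 3 with rmCIRP, where the adjusted p reached 0.199, and with no filter on low counts (adjusted p = 0.17).

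In the TRIF arm, Ticam1, the adaptor TRIF itself, had 895, 936 and 855 normalized counts with PBS and 1021, 970.2 and 946 with rmCIRP. This was a log2 fold change of 0.12 (SE 0.046, edgeR adjusted p = 0.0375). All libraries with rmCIRP lay above those with PBS, but the lowest of them exceeded the highest PBS library by little, and the call was lost without library 3 with PBS or library 1 with rmCIRP (adjusted p up to 0.192), and with no filter on low counts (adjusted p = 0.171). Ticam2, the bridging adaptor of this arm, had 29.8, 30 and 29.1 normalized counts with PBS and 39.3, 42.2 and 45.4 with rmCIRP. Its groups did not overlap, and its log2 fold change of 0.51 was as large as that of Myd88 but far less precise (SE 0.20, edgeR adjusted p = 0.0507). The call was lost without library 3 of either condition (adjusted p up to 0.137).

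Of the IRAK family, the inhibitory member had the largest change of all 10 genes. Irak3 had 538, 754 and 659.9 normalized counts with PBS and 1360.4, 1235 and 1351 with rmCIRP, so that even the lowest library with rmCIRP was well above the highest with PBS. Its log2 fold change was 1.01 (SE 0.11, edgeR adjusted p = 3.11e-07), and it stayed between 0.91 and 1.14 when any one library was left out. The kinases that carry the signal gave no such change. Irak4, the first kinase of the complex, had 439, 459 and 481 normalized counts with PBS and 435, 470.2 and 496 with rmCIRP. Irak1, which Irak4 phosphorylates, had 2681, 2784 and 2596 and 2644, 2802 and 2794, and Irak2, which sustains signaling downstream of Irak4, had 1251, 1182 and 1323 and 1232, 1288 and 1251. For all 3 the groups overlapped. The 95% interval of the log2 fold change ran from -0.11 to 0.15 for Irak4, from -0.05 to 0.10 for Irak1 and from -0.12 to 0.12 for Irak2, so changes as large as that of Myd88 lay outside these intervals.

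Both ligases rose. Traf3, which acts with Ticam1 and also limits noncanonical NF-κB signaling, had 1569.7, 1616 and 1607 normalized counts with PBS and 2048, 2071 and 2098 after rmCIRP, and changed by 0.37 on the log2 scale (SE 0.047, edgeR adjusted p = 1.61e-06). Replicates were tight and the groups far apart. Traf6, which builds the ubiquitin chains that activate TAK1 in the MyD88 arm, rose from 846, 795 and 806 to 974, 957 and 961 normalized counts, a log2 fold change of 0.24 (SE 0.063, edgeR adjusted p = 0.0053). Myd88, Irak3, Traf3 and Traf6 kept their calls when each library was left out in turn, and without library 3 with PBS only these 4 of the 7 were called.

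**Figure D1:**
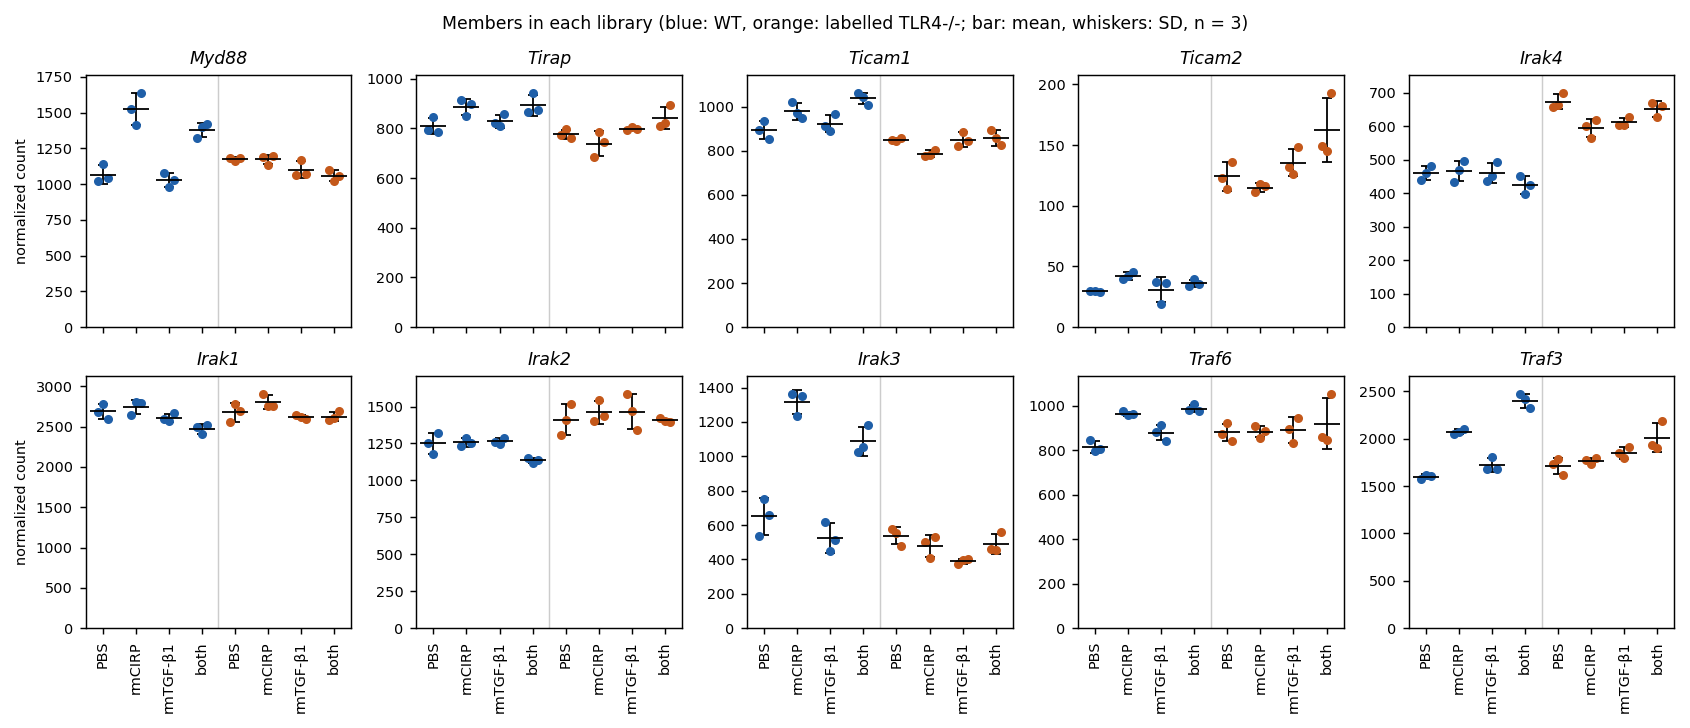
Normalized counts of the 10 members in each library (y axis, from 0) over the 8 conditions (x axis), with WT in blue and labelled TLR4-/- in orange. Points are libraries, bars are means and whiskers are SD (n = 3). Irak3 and Myd88 are highest in the 2 WT conditions with rmCIRP, and Ticam2 and Irak4 are higher in every labelled TLR4-/- library than in every WT library.

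In cells labelled TLR4-/-, rmCIRP changed none of the 10 members by edgeR's quasi-likelihood test, and 0% of all genes tested passed the threshold. At an unadjusted p under 0.05, 2 members (Irak4 and Ticam1) and 6.99% of all genes passed, and DESeq2 called 0 members and 32 genes. Myd88 had 1185, 1164 and 1182 normalized counts with PBS and 1191, 1133 and 1193 with rmCIRP, and the 95% interval of its log2 fold change was -0.11 to 0.11. Irak3 had 579, 556 and 481 and 501, 409 and 532 normalized counts, which overlap, with a log2 fold change of -0.16 (interval -0.42 to 0.10). Traf3 had 1736, 1787 and 1619 and 1771, 1729 and 1798, also overlapping (log2 fold change 0.049, interval -0.048 to 0.15). For the lower of the small shifts, Irak4 had a log2 fold change of -0.17 (SE 0.059, edgeR adjusted p = 0.5) and Ticam1 one of -0.11 (SE 0.046, edgeR adjusted p = 0.652). The other members had log2 fold changes of -0.067 (Tirap), -0.10 (Ticam2), 0.073 (Irak1), 0.056 (Irak2) and 0.013 (Traf6).

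The response to rmCIRP was tested for a difference between genotypes as the log2 fold change in labelled TLR4-/- cells minus that in WT cells. It was lower in labelled TLR4-/- cells for 7 of 10 members and higher for none, when 14.3% of all genes tested were lower and 31.4% differed in either direction. The median difference was -0.23 over the members and 0.029 over all genes. Without regard to sign, the median size of the difference was 0.228 over the members and 0.199 over all genes. Irak3 had the largest difference at -1.17 (SE 0.17, edgeR adjusted p = 1.93e-05). Myd88 differed by -0.51 (SE 0.076, edgeR adjusted p = 3.33e-05), Traf3 by -0.32 (SE 0.066, edgeR adjusted p = 0.00104) and Ticam1 by -0.23 (SE 0.065, edgeR adjusted p = 0.0115). These 4 kept their calls when each of the 12 libraries was left out in turn.

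The differences of Ticam2 (-0.61), Traf6 (-0.22) and Tirap (-0.19) passed less firmly, with edgeR adjusted p of 0.0686, 0.0742 and 0.0621. The call for Traf6 was lost without WT library 2 or 3 with PBS, WT library 1 with rmCIRP, labelled TLR4-/- library 2 with PBS, or labelled TLR4-/- library 2 or 3 with rmCIRP. That for Ticam2 was lost without WT library 1 or 3 with PBS, WT library 3 with rmCIRP, labelled TLR4-/- library 3 with PBS or labelled TLR4-/- library 1 with rmCIRP. That for Tirap was lost without WT library 3 with PBS, WT library 1 with rmCIRP, labelled TLR4-/- library 2 with PBS or labelled TLR4-/- library 1 with rmCIRP, and with no filter on low counts (adjusted p = 0.165). Irak4 (difference -0.19, edgeR adjusted p = 0.114) did not pass but did without WT library 3 with PBS or WT library 1 with rmCIRP (adjusted p down to 0.0613). It also passed with the replicate block, median-of-ratios scaling, only the libraries compared or a filter at a mean count of 10 (adjusted p down to 0.0743). Irak1 (0.047) and Irak2 (0.056) did not pass.

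**Figure D2:**
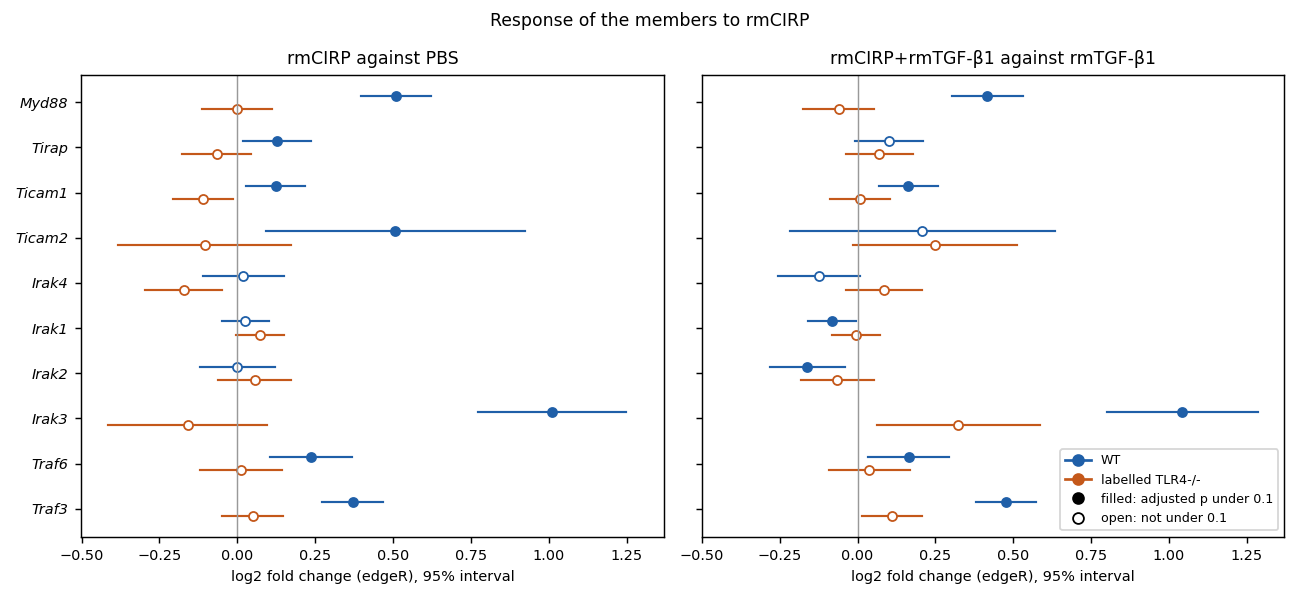
Log2 fold change of each member in response to rmCIRP (x axis, edgeR estimate with its 95% interval), against PBS on the left and in the presence of rmTGF-β1 on the right, in WT (blue) and labelled TLR4-/- cells (orange). Filled points have an adjusted p under 0.1: in WT 7 members on each side, in labelled TLR4-/- cells none.

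With rmTGF-β1 present in both conditions, rmCIRP again raised Irak3, Traf3 and Myd88 in WT cells. Of 10 members, 5 rose and 2 fell by edgeR's test, when 20.5% of all genes rose, 21.7% fell and 42.2% changed. The median log2 fold change was 0.16 over the members and -0.011 over all genes. Without regard to sign, the median size of change was 0.163 over the members and 0.172 over all genes. The libraries of the 2 conditions did not overlap for 8 of 10 members and for 50% of all genes. Irak3 had 620.3, 447 and 511 normalized counts with rmTGF-β1 and 1027, 1053 and 1181 with both agents, and every library with both was above every library with rmTGF-β1 alone. Its log2 fold change was 1.04 (SE 0.12, edgeR adjusted p = 3.27e-07).

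Traf3 had 1677, 1805 and 1682 normalized counts with rmTGF-β1 and 2466, 2416 and 2319 with both (log2 fold change 0.48, SE 0.046, edgeR adjusted p = 3.75e-08). Its level with both agents was above that of every other condition, with no overlap. Myd88 had 1078, 983 and 1029 and 1324, 1396 and 1421 normalized counts (log2 fold change 0.42, SE 0.054, edgeR adjusted p = 2.73e-06). Ticam1, with 912, 889 and 967 and 1060.4, 1042 and 1008 normalized counts, rose by 0.16 on the log2 scale (edgeR adjusted p = 0.00725), without overlap. Traf6, with 883, 912 and 842 and 981, 1006 and 974, rose by 0.16 (edgeR adjusted p = 0.0476), a call lost without library 3 with rmTGF-β1 or library 2 with both.

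The kinases Irak2 and Irak1 fell slightly in this comparison. Irak2 had 1258, 1248 and 1289.8 normalized counts with rmTGF-β1 and 1151, 1118 and 1137 with both, separated groups, and a log2 fold change of -0.16 (SE 0.058, edgeR adjusted p = 0.0336). Irak1 had 2590.2, 2575 and 2667 and 2497, 2404 and 2517, with a log2 fold change of -0.083 (edgeR adjusted p = 0.0868). The call for Irak1 was lost by DESeq2, with median-of-ratios scaling, with either other filter on low counts, and without library 1 or 3 with rmTGF-β1 or library 1 or 2 with both. Tirap (0.10), Ticam2 (0.21) and Irak4 (-0.12) did not pass, although Irak4 did without library 1 of either condition (adjusted p down to 0.0726) and Tirap did with a filter at a mean count of 10 (adjusted p = 0.0775).

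The test of whether rmTGF-β1 altered the response to rmCIRP in WT cells called 0 members by edgeR, against 0.0492% of all genes (8, and 2 to 7 when each library was left out in turn). At an unadjusted p under 0.05, Irak1 was the single member to pass, with 5.64% of all genes, and DESeq2 called 0 members. The estimates for the members ran from -0.30 to 0.11 on the log2 scale. For Irak3 the 95% interval of this difference was -0.31 to 0.37, for Myd88 -0.25 to 0.066 and for Traf3 -0.031 to 0.24.

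Alone, rmTGF-β1 called 0 members in WT cells by edgeR, when 12.4% of all genes passed. These were 2019 genes, and the count was 1253 without library 3 with PBS and 1029 without library 2 with rmTGF-β1. At an unadjusted p under 0.05, 2 members and 22% of all genes passed. Irak3, with 620.3, 447 and 511 normalized counts against 538, 754 and 659.9 with PBS, had a log2 fold change of -0.31 (SE 0.12, edgeR adjusted p = 0.122), and Traf3 one of 0.10 (edgeR adjusted p = 0.199). These were the members that passed unadjusted, and DESeq2 called 1 member, Irak3. Irak3 was also called with no filter on low counts and without library 1 with PBS or library 1 with rmTGF-β1 (adjusted p down to 0.0353 without a library), and Traf3 was with only the libraries compared (adjusted p = 0.0678). In cells labelled TLR4-/-, Irak3 fell with rmTGF-β1: it had 579, 556 and 481 normalized counts with PBS and 373, 396 and 401 with rmTGF-β1, without overlap, and a log2 fold change of -0.46 (SE 0.13, edgeR adjusted p = 0.0141). Without library 3 with rmTGF-β1, which differed from its replicates, the log2 fold change was -0.48 (edgeR adjusted p = 0.0353).

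There, 2 members were called, the other being Traf3 (log2 fold change 0.12, edgeR adjusted p = 0.0838), when 23.9% of all genes passed (3884, and 2517 without library 3 with rmTGF-β1). The libraries of the 2 conditions did not overlap for 3 of 10 members and for 33.8% of all genes. Traf3 lost its call by DESeq2, in 4 other settings, and without library 1 or 3 with PBS or library 1 or 3 with rmTGF-β1. Irak4 had a log2 fold change of -0.13 (edgeR adjusted p = 0.134) and passed only with the replicate block (adjusted p = 0.0884). The genotypes were not told apart in the response to rmTGF-β1: 0 members and 0.0861% of all genes (14) differed by edgeR, no member had an unadjusted p under 0.05 (10.4% of all genes did), and DESeq2 called 0 members. The 14 genes became 0 without WT library 1 or 2 with PBS, WT library 2 or 3 with rmTGF-β1, labelled TLR4-/- library 2 with PBS or labelled TLR4-/- library 1 with rmTGF-β1. They became 4 and 24 without labelled TLR4-/- library 1 and 3 with PBS, and 119 and 37 without labelled TLR4-/- library 2 and 3 with rmTGF-β1. For Irak3 the 95% interval of that difference was -0.51 to 0.21.

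Under rmTGF-β1, rmCIRP called 0 members in cells labelled TLR4-/- by edgeR, against 2.69% of all genes (437, and 0 to 2674 when each library was left out in turn). There, 2 members and 17.9% of all genes passed at an unadjusted p under 0.05, and DESeq2 called 0 members. Irak3 had 373, 396 and 401 normalized counts with rmTGF-β1 and 463, 454 and 557 with both agents. These groups did not overlap, and the log2 fold change was 0.32 (SE 0.13, edgeR adjusted p = 0.186). In this comparison, 3 of 10 members and 13% of all genes had no overlap. Traf3 had 1850.0, 1791 and 1916 and 1937, 1904 and 2184, with a log2 fold change of 0.11 (edgeR adjusted p = 0.217). Library 3 with both, which stood apart from its replicates, held the highest count of its group for Irak3, Traf3, Traf6 (860.0, 847 and 1051), Ticam2 (149, 145 and 193), Tirap and Irak1. Without library 1 with both, Irak3 and Traf3 were called (edgeR adjusted p = 0.0999 and 0.0893), and across the 6 fits that left out 1 library the log2 fold change ran from 0.23 to 0.38 for Irak3 and from 0.047 to 0.15 for Traf3. Irak3 was also called with no filter on low counts (adjusted p = 0.000932).

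The response to rmCIRP under rmTGF-β1 was lower in labelled TLR4-/- than in WT cells for 3 members, when 10.4% of all genes were lower and 20.9% differed. Irak3 differed by -0.72 (SE 0.17, edgeR adjusted p = 0.00544), Myd88 by -0.48 (SE 0.077, edgeR adjusted p = 0.000104) and Traf3 by -0.37 (SE 0.066, edgeR adjusted p = 0.000351). Without labelled TLR4-/- library 3 with both, these differences were -0.81, -0.47 and -0.43, and without library 3 with rmTGF-β1 they were -0.69, -0.49 and -0.34, each still past the threshold. The median difference was -0.078 over the members and 0.012 over all genes. Without regard to sign, the median size of the difference was 0.141 over the members and 0.163 over all genes. Ticam1 (-0.16, edgeR adjusted p = 0.112) and Irak4 (0.21, edgeR adjusted p = 0.116) did not pass with all libraries. Ticam1 passed with a filter at a mean count of 10 (adjusted p = 0.0748) and without WT library 3 or labelled TLR4-/- library 1 with rmTGF-β1, or labelled TLR4-/- library 1 with both. Irak4 passed with the replicate block (adjusted p = 0.0759) and without WT library 1 with rmTGF-β1, WT library 1 with both or labelled TLR4-/- library 2 with both, and Traf6 passed without labelled TLR4-/- library 3 with both (adjusted p = 0.022).

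Without stimulation, the genotypes differed most in Ticam2, the bridging adaptor of the TRIF arm. It had 29.8, 30 and 29.1 normalized counts in WT and 123, 113 and 136 in labelled TLR4-/- cells with PBS, and in all 4 treatments every labelled TLR4-/- library was above every WT library. The log2 fold change with PBS was 2.06 (SE 0.17, edgeR adjusted p = 8.4e-10). Tmed7, the cargo receptor gene whose exons overlap it, had 6114 ± 51.7 and 6457 ± 133 normalized counts (SD, n = 3, log2 fold change 0.075, edgeR adjusted p = 0.15). Irak4 had 439, 459 and 481 normalized counts in WT and 657, 664 and 699 in labelled TLR4-/- cells with PBS, a log2 fold change of 0.55 (SE 0.061, edgeR adjusted p = 1.4e-07). Its groups, too, were separate in every treatment. With PBS, the libraries of the 2 genotypes did not overlap for 4 of 10 members and for 51.7% of all genes.

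In all, 4 members were higher and 1 lower in labelled TLR4-/- cells with PBS, when 23.2% of all genes were higher, 24% lower and 47.1% different in either direction. The median was 0.10 over the members and -0.02 over all genes. Without regard to sign, it was 0.122 over the members and 0.186 over all genes. Irak2 had 1251, 1182 and 1323 normalized counts in WT and 1309, 1407 and 1519 in labelled TLR4-/- cells, which overlap (log2 fold change 0.17, edgeR adjusted p = 0.0205), and its call was lost without labelled TLR4-/- library 3. Myd88 was higher by 0.14 on the log2 scale (edgeR adjusted p = 0.0476), with 1020.2, 1140.1 and 1039.8 against 1185, 1164 and 1182 normalized counts, a call lost without WT library 1 or 3. Irak3 was lower, with a log2 fold change of -0.27 (edgeR adjusted p = 0.0751) and overlapping groups, and lost its call without WT library 2 or 3 or labelled TLR4-/- library 3. Tirap (-0.062), Ticam1 (-0.078), Irak1 (-0.0093), Traf3 (0.10) and Traf6 (0.11) did not pass, but Ticam1 did without WT library 3 and Traf3 did without labelled TLR4-/- library 3 (adjusted p = 0.025). With only the libraries compared, Traf3 and Traf6 passed (the latter with an adjusted p of 0.0752), and with a filter at a mean count of 10 Traf3 did. All 15 macrophage markers were higher in labelled TLR4-/- libraries, with a median log2 fold change of 2.19, and their part in these differences was not tested.

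The order of the conditions was read from the libraries' ranges. For Irak3 the means fell from WT with rmCIRP (1315 ± 70.2 normalized counts, SD, n = 3) to WT with both (1087 ± 82.8) and WT with PBS (651 ± 108), each separate from the next. WT with PBS, labelled TLR4-/- with PBS (539 ± 51.4), WT with rmTGF-β1 (526 ± 87.6), labelled TLR4-/- with both (491 ± 57.4) and labelled TLR4-/- with rmCIRP (481 ± 63.8) each overlapped the next in order, and labelled TLR4-/- with rmTGF-β1 (390.3 ± 15.2) lay below them. For Myd88, WT with rmCIRP (1524 ± 109.6) and WT with both (1380.4 ± 50) overlapped each other and lay above the other 6 conditions, each of which overlapped the next between means of 1177 and 1030.2. For Tirap and Traf6, all neighbouring conditions overlapped.

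The rise of Irak3 altered the make-up of the IRAK mRNAs. Per kb of exon, Irak3 made up 15.7% ± 2.15 (SD, n = 3) of the summed normalized count of the 4 IRAKs in WT cells with PBS and 27.2% ± 1.52 once rmCIRP was given, against 13.3% ± 1.96 with rmTGF-β1 and 25.4% ± 1.38 when rmCIRP was added to it. In cells labelled TLR4-/-, the share was 12.6% ± 1.48 with PBS and 11.1% ± 1.38 with rmCIRP, against 9.52% ± 0.57 with rmTGF-β1 and 11.7% ± 1.07 after both agents. Irak1 stayed the largest part in every condition, at 44.2% ± 0.96 in WT cells with rmCIRP and 50.8% ± 1.75 with PBS. The share of Irak4 was 8.16% ± 0.31 in WT and 11.5% ± 0.34 in labelled TLR4-/- cells with PBS. Shares sum to the whole, so the rise of one gene lowers the others, and these shares were not tested.

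**Figure D3:**
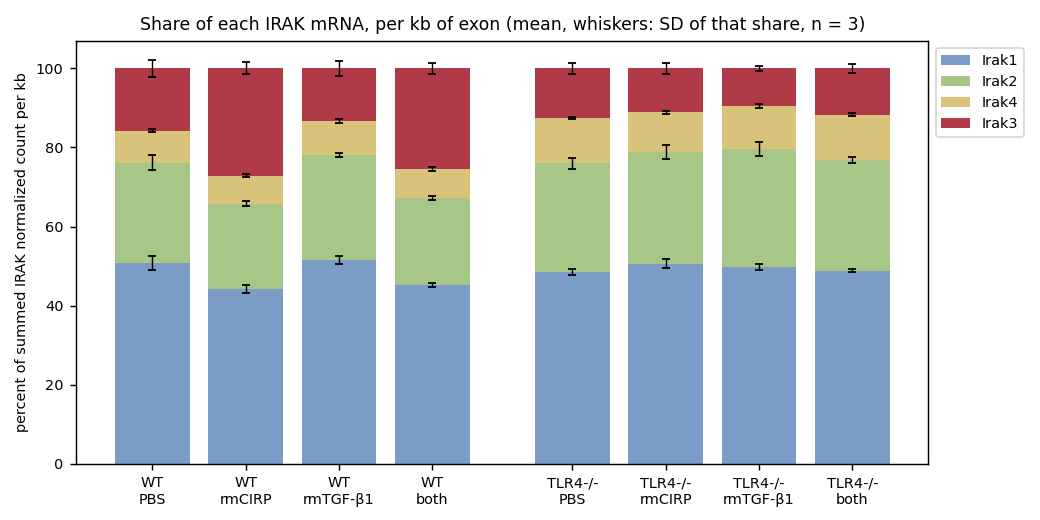
Share of each IRAK mRNA in the summed normalized count per kb of exon of Irak1, Irak2, Irak4 and Irak3 (y axis, percent), for the 8 conditions (x axis). Segments are means and whiskers are the SD of the segment they top (n = 3); the Irak3 segment is widest in WT cells with rmCIRP, alone or with rmTGF-β1.

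Other genes of the pathway were taken from a pair of lists, of 23 kinases, ubiquitin partners and further TRAFs and of 12 inhibitors, of which 34 could be tested. The lists were chosen with earlier results of these data known, so their counts are not independent of those results. In WT cells with rmCIRP, 20 changed by edgeR's test, when 43.9% of all genes changed, 19.8% higher and 24.1% lower. In the first list 10 were higher and 3 lower, and among the inhibitors 6 were higher and 1 lower. Their median log2 fold changes were 0.14 and 0.32. The largest rise was that of Traf1, an NF-κB target that lacks the RING domain of other TRAFs, from 27.4 ± 2.12 to 672 ± 46.8 normalized counts (SD, n = 3, log2 fold change 4.61, SE 0.17, edgeR adjusted p = 2.14e-15). Tnfaip3, which encodes the deubiquitinase A20, went from 792 ± 75.4 to 4141 ± 49.5 normalized counts (log2 fold change 2.38). Il1rl1, the IL-33 receptor, rose by 2.08 on the log2 scale, and the A20-binding proteins Tnip1 and Tnip3 by 1.42 and 1.42. Tnfaip8l2 (TIPE2), an inhibitor expressed in immune cells, fell from 139 ± 15.5 to 57.8 ± 6.66 normalized counts (log2 fold change -1.26), Peli2, a ligase that binds IRAKs, from 359 ± 28.2 to 187 ± 16.1 (-0.95), and Traf5 had a log2 fold change of -0.26 that was not called without library 1 with PBS or library 3 with rmCIRP. These genes were named because their rises and falls were the largest. Without regard to sign, the changes of Myd88 (0.51) and Traf3 (0.37) exceeded only that of Traf5. That of Irak3 (1.01) exceeded those of Peli2 and Traf5, and that of Traf6 (0.24) exceeded none of them. The median size of change was 0.249 in the first list and 1.07 among the inhibitors.

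With rmTGF-β1 present, 22 of the 34 changed in WT cells in response to rmCIRP, 17 higher and 5 lower, when 42.2% of all genes changed, 20.5% higher and 21.7% lower. They were led by Traf1 (4.46), Tnfaip3 (2.30), Il1rl1 (2.20), Tnip1 (1.45) and Pik3ap1 (BCAP, 1.34), with Tnfaip8l2 (-0.996), Peli2 (-0.66) and Traf5 (-0.26, not called without library 3 of either condition) at the other end.

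In cells labelled TLR4-/-, rmCIRP against PBS called 0 of the 34 by edgeR, and 0% of all genes. At an unadjusted p under 0.05, 2 of the 34 passed, Peli1 and Tnip2, against 6.99% of all genes. Under rmTGF-β1, rmCIRP called 1 of the 34, Il1rl1, named here after its values were seen, when 2.69% of all genes were called. Il1rl1 had 1923, 1592 and 4078 normalized counts with rmTGF-β1 and 2646, 4361 and 10562 with both agents, which overlap, and a log2 fold change of 1.198 (SE 0.34, edgeR adjusted p = 0.091). The highest count of each group was in its library 3, the libraries that differed from their replicates. The call was lost with only the libraries compared and without library 1 or 2 with rmTGF-β1 or library 3 with both, where the log2 fold change was 0.46, and the value without library 3 with rmTGF-β1 was 1.73.

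Against PBS, the response differed between genotypes for 16 of them, lower in labelled TLR4-/- cells for 14 and higher for 2 (14.3% of all genes were lower and 17.1% higher). The differences were -4.60 for Traf1, -2.41 for Tnfaip3 and -2.11 for Il1rl1, and 1.28 for Tnfaip8l2 and 1.06 for Peli2, which fell in WT cells. Under rmTGF-β1, the response differed for 15, 12 lower and 3 higher, when 20.9% of all genes differed. With rmTGF-β1 alone, 6 of the 34 changed in WT cells, all lower, and 9 in labelled TLR4-/- cells, 2 higher and 7 lower, against 12.4% and 23.9% of all genes.

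With PBS, 23 of the 34 differed between genotypes, 19 higher and 4 lower in labelled TLR4-/- cells, when 47.1% of all genes differed, 23.2% higher and 24% lower. The highest were Tnfaip8l2 (log2 fold change 2.19), Pik3ap1 (1.84), Tnip3 (1.79), Traf1 (0.87) and Tifa (0.75), an adaptor of TRAF6. Il1rl1 (-1.92), Chuk (IKKα, -0.28) and Tab3 (-0.15, not called with no filter on low counts) were lower. Macrophage markers moved with this comparison as given above, and their part in it was not tested.

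**Figure D4:**
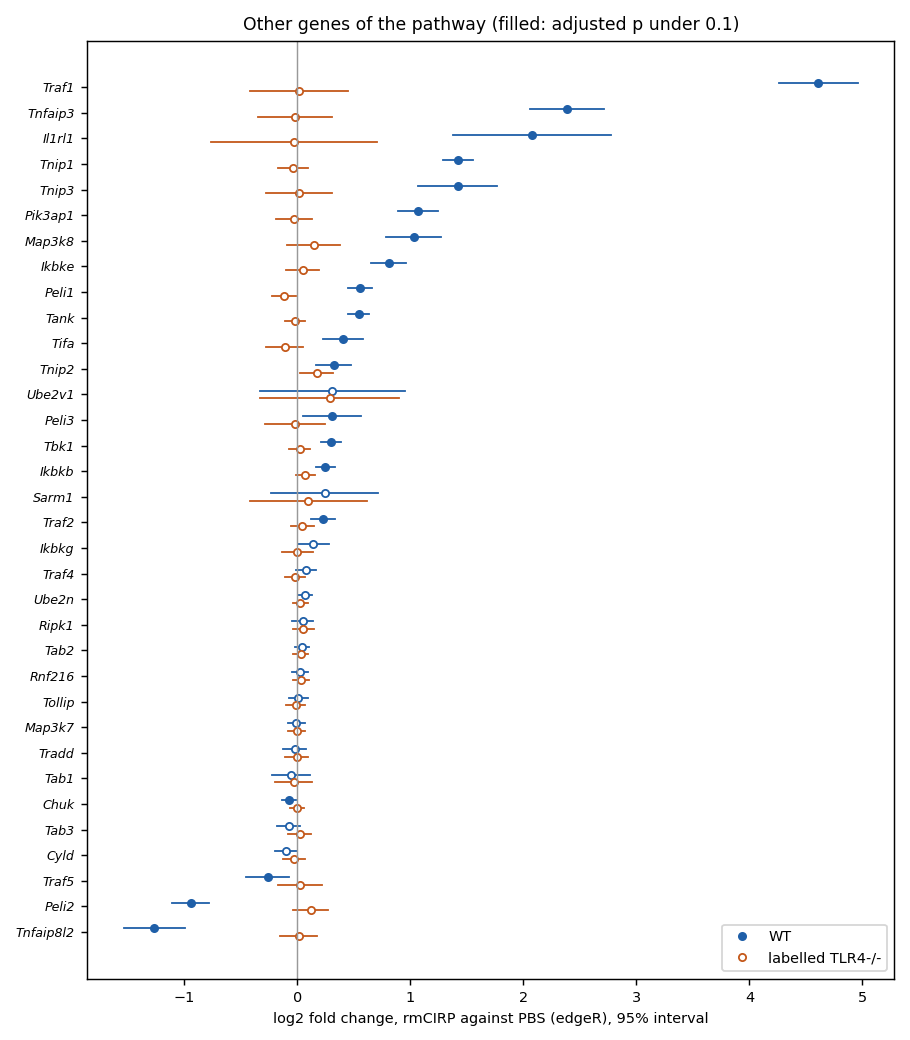
Log2 fold change with rmCIRP against PBS (x axis, edgeR estimate with its 95% interval) of 34 other genes of the pathway, in order of their value in WT cells, with WT in blue and labelled TLR4-/- in orange. Filled points have an adjusted p under 0.1, which 20 genes reach in WT and none in labelled TLR4-/- cells.

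The genes whose means followed those of Myd88, Ticam1 and Irak3 most closely over the 8 conditions were sought by Pearson's correlation of log2-scaled counts among the 12310 genes averaging 50 or more normalized counts. For Myd88 they were Trafd1 (r = 0.996), Irf1 (0.993) and Gm4070 (0.991). Irf1, an interferon-regulated transcription factor, had 423 ± 16 normalized counts (SD, n = 3) in WT cells with PBS and 947 ± 101 with rmCIRP. For Ticam1 they were Slc35b1 (0.990), Erh (0.984) and Tapt1 (0.981), and for Irak3 they were Saa3 (0.996), Rnf24 (0.995) and Cxcl1 (0.993). Saa3, an acute-phase serum amyloid, had 15690.4 ± 5349 and 43952 ± 6507, and Cxcl1, a neutrophil chemokine, 926 ± 275 and 17345 ± 499. Each correlation rests on 8 points that share the treatments and genotypes, and it describes likeness of pattern, not of size.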

How the data were processed

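RNA of 24 fibroblast libraries was sequenced from a stranded total RNA kit. Reads were mapped by the authors to mouse GENCODE with STAR2, and raw HTSeq counts per gene symbol, not normalized, were deposited. The submitters' processing notes name build NCBIM37, and the annotation release and strand option are not given in the sources used here. The 5 tally lines were left out. Groups came from the labels, and no library was dropped. In R 4.3.3, genes were kept with edgeR 4.0.16 filterByExpr by condition (16258 of 34285 with any count), scaled by TMM and fitted with one mean per condition over all 24 libraries. Contrasts were tested by the quasi-likelihood F-test, adjusted after Benjamini-Hochberg, at 0.1, the study's cut-off. SE is the absolute log2 fold change over the root of F, and intervals are 95%. The common biological coefficient of variation was 0.0571. The method was tested on simulated data. Normalized counts are counts divided by DESeq2 1.42.0 median-of-ratios size factors. Exon lengths are from GENCODE M21, joined by symbol.

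Alternatives were DESeq2, median-of-ratios scaling, no filter, a filter at a mean count of 10, a replicate block, only the libraries compared, and leaving out each library. Members and lists were chosen with earlier results of these data known. All 10 members are named. Of the other pathway genes, the 5 largest rises and 3 largest falls past the threshold are named in each comparison, and for patterns the 3 nearest genes. Tmed7 was added after its overlap with Ticam2 was seen.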

Additional observations from a re-analysis of the deposited data

Results flagged for a closer look

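The response to rmCIRP differed between genotypes by a test of the difference itself, an interaction contrast in edgeR with Benjamini-Hochberg adjustment, as labelled TLR4-/- minus WT on the log2 scale. Against PBS, the difference was -1.17 for Irak3, -0.61 for Ticam2, -0.51 for Myd88, -0.32 for Traf3, -0.23 for Ticam1, -0.22 for Traf6 and -0.19 for Tirap. Among other genes of the pathway, it was -4.60 for Traf1 (edgeR adjusted p = 7.73e-11), -2.41 for Tnfaip3 (edgeR adjusted p = 3.42e-08), -2.11 for Il1rl1 (edgeR adjusted p = 0.00262), 1.28 for Tnfaip8l2 (edgeR adjusted p = 1.65e-06) and 1.06 for Peli2 (edgeR adjusted p = 1.67e-07). Under rmTGF-β1, it was -0.72 for Irak3, -0.48 for Myd88 and -0.37 for Traf3. Against PBS, the differences of Ticam2, Traf6 and Tirap had edgeR adjusted p of 0.0686, 0.0742 and 0.0621, and each call was lost without single libraries.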

How the results depend on the processing

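Counts of members called moved by over 1.5 times in 4 comparisons. In WT cells, rmTGF-β1 against PBS called 0 members, but 1 with DESeq2, with no filter on low counts or with only the libraries compared, and 0 to 1 when a library was left out. In labelled TLR4-/- cells, rmTGF-β1 against PBS called 2, but 1 with DESeq2, median-of-ratios scaling, no filter, a filter at a mean count of 10 or only the libraries compared, and 1 to 2 without a library. There, both agents against rmTGF-β1 called 0, but 1 with no filter and 0 to 2 without a library. In WT cells, rmCIRP against PBS called 7 members, and 4 to 7 without a library. The log2 fold change of Myd88 with rmCIRP in labelled TLR4-/- cells, near 0, became -0.0043 with DESeq2, -0.0042 with median-of-ratios scaling, -0.0055 with no filter and -0.0026 with a filter at a mean count of 10. That of Irak1 between genotypes with PBS became 0.0018 with no filter, 0.0099 with that filter and 0.0062 with only the libraries compared.

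When libraries were left out in turn, 30 of the 110 log2 fold changes of a member in a comparison took both signs, none of them past the threshold with all libraries. Of these, 7 were differences between genotypes in the change with rmTGF-β1 alone, 5 and 4 in WT and labelled TLR4-/- cells with rmTGF-β1, and the ranges of 7 more follow. With rmCIRP in labelled TLR4-/- cells, Myd88 ran from -0.016 to 0.016 and Traf6 from -0.023 to 0.046. With rmCIRP in WT cells, Irak2 ran from -0.030 to 0.040 and Irak4 from -0.012 to 0.063. Ticam2 with both agents against rmTGF-β1 in WT cells ran from -0.038 to 0.35 and was below 0 without library 2 with rmTGF-β1. Irak1 between genotypes with PBS ran from -0.044 to 0.032, and the difference between genotypes in the response of Irak2 to rmCIRP from -0.0082 to 0.093. The cause was not tested.

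The replicate numbers were not taken to pair the libraries, since the labels do not say that a number marks a shared batch. Few pairs of libraries correlated at over 0.1. Of 84 pairs with the same number in different conditions, 4 did (mean 0.012, highest 0.369), and of 168 pairs with different numbers, 3 did (mean -0.006, highest 0.224). As a hint from the data, 12 of 24 libraries correlated best with their own number, when 8 would if the numbers carried nothing. With the number as a block, members called were 7, 0, 7, 0, 3, 0, 5, 8, 4, 0 and 0 in place of 7, 0, 7, 0, 2, 0, 5, 7, 3, 0 and 0, in the order WT rmCIRP, WT rmTGF-β1, WT rmCIRP under rmTGF-β1, the same 3 in labelled TLR4-/- cells, genotypes with PBS, the differences between genotypes in the response to rmCIRP alone and under rmTGF-β1, that in the response to rmTGF-β1, and the interaction in WT. The 1 added each time was Irak4. Over all genes, rmCIRP in labelled TLR4-/- cells called 0 genes, but 32 with DESeq2, 149 with no filter, 29 with only the libraries compared and 1 with the block, and up to 9 without a library. There, both agents against rmTGF-β1 called 437 genes, but 924 with DESeq2, 1580 with no filter, 810 with the block and 0 with only the libraries compared. It called 0, 79 and 2141 without library 1, 2 and 3 with rmTGF-β1, and 2674, 738 and 1 without library 1, 2 and 3 with both. How the genotypes differed in their response to rmTGF-β1 alone called 14 genes, but 173 with DESeq2, 563 with no filter, 23 with the other filter and 22 with the block, and the interaction in WT called 8, but 39, 198 and, with only the libraries compared, 125.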

Other observations

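The make-up of the 4 adaptor mRNAs per kb of exon, which was not tested, is given here as values. In WT cells, Myd88 made up 46.9% ± 0.81 (SD, n = 3) of their summed normalized count with PBS and 53.5% ± 1.89 with rmCIRP, while Ticam1 made up 33.9% ± 0.71 and 29.6% ± 1.65 and Tirap 18.6% ± 0.15 and 16.3% ± 0.27. In cells labelled TLR4-/-, the share of Myd88 was 49.7% ± 0.28 with PBS and 51.3% ± 1.29 with rmCIRP. Ticam2 stayed the smallest part in each, at 0.58% ± 0.023 in WT and 2.33% ± 0.21 in labelled TLR4-/- cells with PBS. Reads in the part it shares with Tmed7 could not be assigned, so its share is uncertain.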
